A study of Mus musculus with 18 samples.

Results

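Glucuronidation and sulfation genes were followed in the retinal pigment epithelium (RPE) of *rd1* mice with and without Nrf2 overexpression. The set held every protein-coding gene with a symbol of the UDP-glucuronosyltransferases (Ugt followed by a digit) or the cytosolic sulfotransferases (Sult followed by a digit), plus *Papss1*, *Papss2*, *Ugdh* and *Ugp2*, which make the donors of both reactions. The rule used symbols, not values, but it was chosen with earlier results of these data known. It gave 47 genes among the 47729 genes of the count table. Of these, 17 were expressed, taken as 10 or more counts in at least 9 libraries, 11 held fewer counts and 19 had no count in any library. Of the 17, 9 had 10 or more counts in every library. The expressed genes were 5 of 22 UGT genes, 8 of 21 SULT genes and 4 of 4 donor synthesis genes.

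All animals were *rd1* (FVB/N) mice at P40, a strain with a loss-of-function allele of *Pde6b* in which the rods die early. In each of 9 mice, 1 eye received AAV-Best1-Nrf2 with AAV-Best1-GFP (Best1-Nrf2 eyes) and the fellow eye AAV-Best1-GFP alone (control eyes), so both groups carried the degeneration and the GFP vector. By the paper's methods, the Best1-Nrf2 eyes received a larger total vector dose, and the Nrf2 vector had another capsid than the GFP vector. Vector dose, capsid and Nrf2 cannot be told apart in this design. The Nrf2 vector holds the human cDNA under a fragment of the human Best1 promoter, which is active in the RPE among the cells of the eye, and each library was made from 1 eyecup. The input was the RNA recovered from the stabilising liquid that had held a retina-free eyecup, and its poly(A) fraction was amplified. The comparison asked which genes differed between the eyes of a mouse when Nrf2 was overexpressed in the RPE.

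Glucuronidation joins glucuronic acid from UDP-glucuronic acid to phenols, bilirubin, steroids and drugs, and takes place in the endoplasmic reticulum. Sulfation of small molecules moves a sulfonate group from PAPS to similar acceptors in the cytosol. Both make their substrates more water soluble, the products leave cells through ABC exporters, and some of these genes, among them members of the *Ugt1a* cluster and *Ugdh*, are known targets of Nrf2 and of the aryl hydrocarbon receptor in the liver.

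Library totals ranged from 18956748 to 49598700 counts, and 5 of 9 mice had the larger total in the Best1-Nrf2 eye, a difference within the spread of the mice (exact permutation of the signs of the paired differences, 2-sided, p = 0.148). *Nfe2l2*, the mouse gene of Nrf2, was at 76.7 to 134 CPM in control eyes and 275 to 704 CPM in Best1-Nrf2 eyes, and rose in 9 of 9 mice (log2 fold change 2.29 ± 0.21 (SE); adjusted p = 6.2e-05, edgeR quasi-likelihood test). How many of its reads came from the human cDNA was not tested. All 14 RPE markers were detected, with summed levels of 11772 to 64860 CPM in control and 14753 to 68138 CPM in Best1-Nrf2 eyes (6881 to 32980 CPM and 6155 to 13650 CPM without *Ttr*), and 5 of the 14 fell, led by *Rpe65* (1.13% of all genes tested fell and 3.12% rose). The samples also held RNA of other cells. The 9 cone markers all fell, from sums of 256 to 2038 CPM to sums of 28.2 to 288 CPM. Of 8 tested rod markers 4 fell (median log2 fold change -3.12 over the 8), from sums of 61.5 to 557 CPM to sums of 6.13 to 117 CPM. Of 10 macrophage markers 5 rose, with list sums of 116 to 482 CPM and 162 to 483 CPM. *Csf1r*, the macrophage marker with the highest control mean, went the other way, from 136 to 59.6 CPM. It was lower in 8 of 9 mice but was not called (log2 fold change -0.97, adjusted p = 0.113, edgeR). Of the marker calls, 4 were lost in some fits that left out 1 mouse: *Rdh5* in 7 of 9 fits (not without mouse 6 or 8), *Rgr* in 3 (without mouse 1, 2 or 7), the cone marker *Gngt2* in 6 (not without mouse 4, 6 or 8) and the rod marker *Gngt1* in 5 (without mouse 1, 2, 3, 5 or 7). *Gngt2* and *Gngt1* were also lost without the replicate block and *Rdh5* under upper-quartile scaling (adjusted p = 0.0504, edgeR).

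In these samples, conjugation genes moved in opposite directions. *Ugdh* and the *Ugt1a6* pair rose in Best1-Nrf2 eyes, by 1.83-fold for *Ugdh*, 3.61-fold for *Ugt1a6a* and 3.54-fold for *Ugt1a6b*, and *Sult1c1*, the most abundant sulfotransferase gene of the control eyes, was 7.48-fold lower. The set was chosen with earlier results of these data known, so the following shares only describe it. Of the 16 members that could be tested, 3 rose, against 3.12% of all 18958 genes tested, and 1 fell, against 1.13% of them. The other 12 did not pass the threshold (adjusted p of 0.0527 to 0.955), and 8 of the 16 had an unadjusted p under 0.05, against 12.8% of all genes tested. The median log2 fold change was -0.27 over the 16 members and -0.03 over all genes tested. No member separated the groups without overlap, higher (1.05% of all genes) or lower (0.116% of all genes). In all 9 mice, 2 members were higher in the Best1-Nrf2 eye, *Ugdh* and *Ugp2* (3.12% of all genes), and 1 was lower, *Sult1c1* (1.22% of all genes). The RNA was a bulk sample, so fewer cells of a type and less RNA per cell cannot be told apart.

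**Figure D1:**
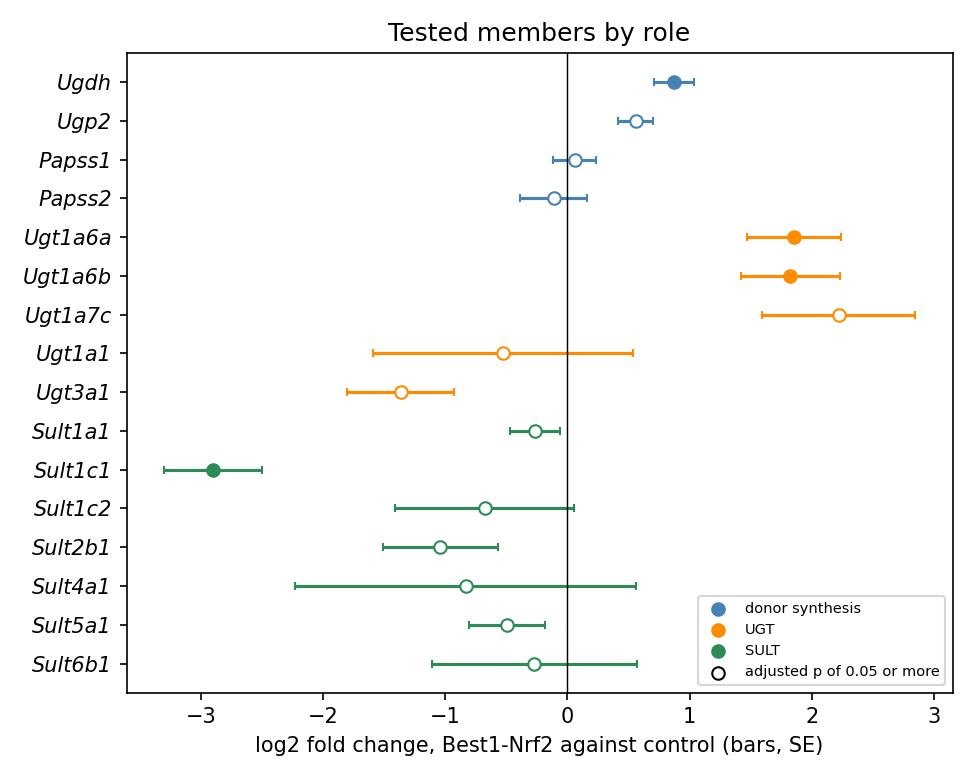
Log2 fold change of each of the 16 tested members, Best1-Nrf2 against control (points; bars, SE; 9 mice), coloured by role. Filled points passed the adjusted p threshold of 0.05: *Ugdh*, *Ugt1a6a* and *Ugt1a6b* lie to the right of 0 and *Sult1c1* to the left, and every SULT gene has a negative value.

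Per kilobase of the principal transcript, *Sult1c1* had the highest control level, with a median of 120 CPM per kb and a range of 46.7 to 217, and its lowest control library was just above the highest for *Ugdh* (46.2 CPM per kb). *Ugdh* followed at a median of 36.1, *Papss1* at 34.2, *Ugp2* at 18.8, *Sult1a1* at 16.2 and *Papss2* at 15.1 CPM per kb, and the ranges of neighbours in this order overlapped. *Ugt1a6b* and *Ugt1a6a* came next, with medians of 5.34 and 5.04 CPM per kb, ahead of *Sult2b1* at 2.33 and *Sult5a1* at 1.05. The remaining 7 expressed members had control medians of 0.11 to 0.40 CPM per kb, levels at which single libraries held few counts.

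The order differed in Best1-Nrf2 eyes. *Ugdh* led with a median of 70.6 CPM per kb, followed by *Papss1* at 34.7, *Ugp2* at 30.4, *Ugt1a6a* at 21.4 and *Ugt1a6b* at 17.2 CPM per kb. *Sult1c1*, at 12.8 CPM per kb, stood just below *Sult1a1* at 13.2. In these eyes the highest UGT median lay above the highest SULT median, and in control eyes below it.

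**Figure D2:**
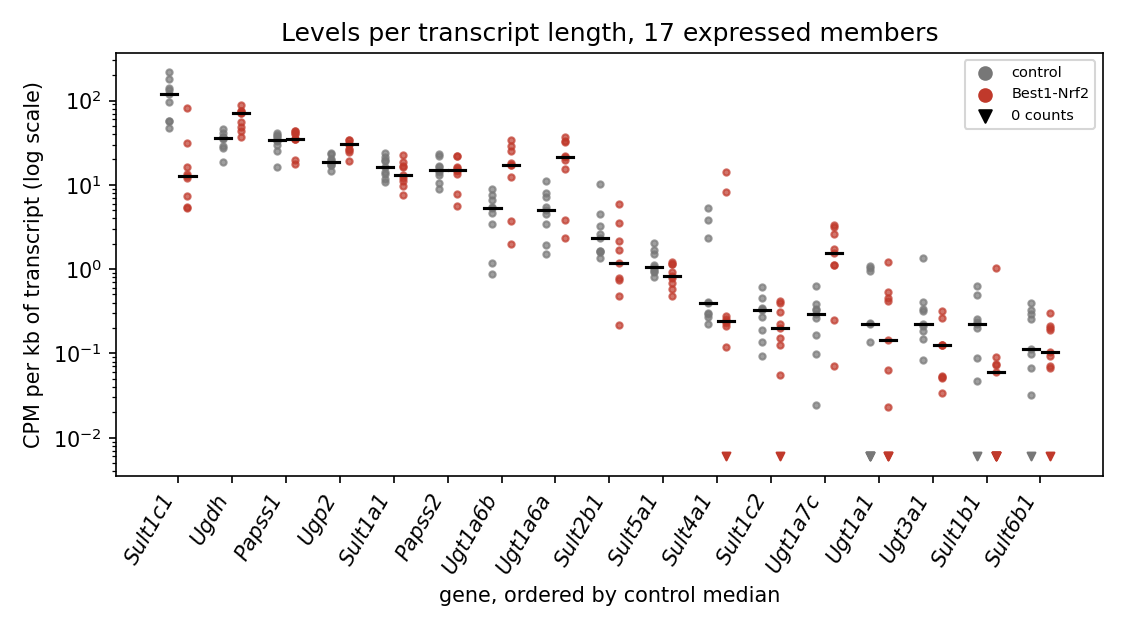
Level of each of the 17 expressed members in CPM per kb of transcript (log scale), in order of the control median, with 1 point for each library (grey, control; red, Best1-Nrf2; 9 each) and bars at the medians; triangles mark libraries with 0 counts. *Sult1c1* leads the control eyes at a median of 120 CPM per kb, and *Ugdh* leads the Best1-Nrf2 eyes at 70.6 CPM per kb.

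*Ugdh*, on mouse chromosome 5 (GRCm38, chr5:65413221-65435949, minus strand), encodes the dehydrogenase that oxidizes UDP-glucose to UDP-glucuronic acid, the donor of every UGT of the cluster. In control eyes it had a lowest, median and highest level of 47.9, 92.1 and 118 CPM, and in Best1-Nrf2 eyes of 95.0, 180 and 227 CPM. In all 9 mice the treated eye had the higher level, and 7 of the 9 Best1-Nrf2 eyes lay above every control eye, those of mice 3 and 6 being the exceptions. Means of 86.9 ± 20.7 and 160 ± 44.5 CPM (SD, n = 9 each) differed by 0.87 ± 0.16 (SE) on the log2 scale (adjusted p = 0.00828, edgeR), and the call held without each mouse in turn (adjusted p of 0.00406 to 0.0344). Within mice the difference ran from 0.25 on the log2 scale in mouse 6 to 1.35 in mouse 8, whose control eye had the lowest level.

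The promoter of *Ugdh* is shown because it was the only one among those of the expressed members to hold a match to the core of the antioxidant response element (ARE), the element that Nrf2 binds, written as TGACNNNGC and searched on both strands. RefSeq windows from 250 bases before to 50 after the start were given for 15 of the 17 expressed members (20 windows, GRCm38.p6), and 12.4% of all 32851 promoter windows hold such a match. The part of the *Ugdh* window before any annotated exon, chr5:65435950-65436092 on the minus strand, has 1 match at position -132 from the RefSeq start, in capitals:

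Ugdh: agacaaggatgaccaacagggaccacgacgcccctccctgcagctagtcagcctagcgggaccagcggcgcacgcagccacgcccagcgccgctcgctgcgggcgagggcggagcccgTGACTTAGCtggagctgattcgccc

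Another match, on the opposite strand at position -94, lies in an exon of the GENCODE annotation, and its first bases also spell GCGTG, the core of the xenobiotic response element, so that both matches overlap:

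Ugdh, around position -94: tcctcaagggGCGTGGTCAtacagttcgga

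GCGTG, searched on both strands, was found in 32.4% of all windows and 3 times in that of *Ugdh*. Windows of members that were not called held it too, with 5 matches for *Ugp2*, 4 for *Papss1*, 2 for *Sult2b1* and 1 for *Sult1b1*. A match describes the letters of the window and says nothing of binding in these eyes.

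*Ugp2* makes UDP-glucose, the precursor of UDP-glucuronic acid and of glycogen. Its level was 39.3, 50.4 and 64.8 CPM (lowest, median and highest) in control eyes and 51.2, 81.5 and 91.9 CPM in Best1-Nrf2 eyes. The treated eye exceeded its fellow in all 9 mice, by 0.02 on the log2 scale in mouse 6 and by 0.98 in mouse 5, and 8 of the 9 Best1-Nrf2 eyes lay above every control eye. The log2 fold change of 0.56 ± 0.14 (SE) did not pass the threshold (adjusted p = 0.0527, edgeR); without mouse 6 the adjusted p was 0.0230, and with the DESeq2 Wald test it was 0.00850.

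The PAPS synthases, which build the sulfate donor from ATP and inorganic sulfate, showed no such difference. *Papss1* averaged 84.9 ± 20.4 CPM without and 89.2 ± 24.9 CPM with Nrf2 (SD, n = 9 each; log2 fold change 0.06 ± 0.17 (SE), adjusted p = 0.953, edgeR). *Papss2* averaged 31.9 ± 9.73 and 30.2 ± 11.3 CPM (log2 fold change -0.11 ± 0.27 (SE), adjusted p = 0.941, edgeR). The most negative within-mouse differences of both genes were in mouse 6, at -1.0 for *Papss1* and -2.04 for *Papss2* on the log2 scale, and the sign of the log2 fold change turned without mouse 5 for *Papss1* (-0.032) and without mouse 6 (0.11) or mouse 9 (0.00102) for *Papss2*.

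**Figure D3:**
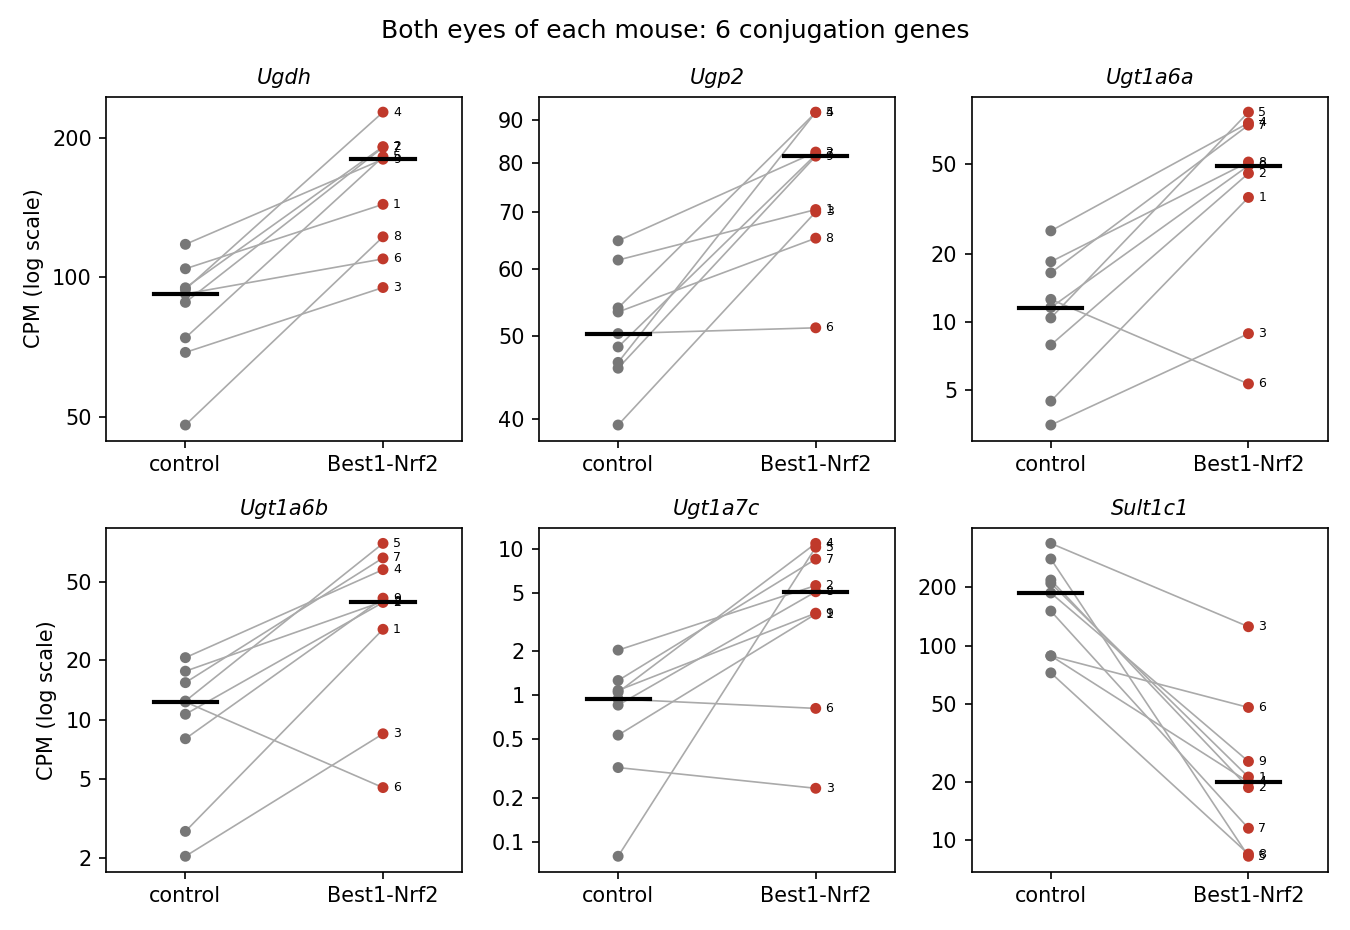
CPM (log scale) of 6 members in both eyes of each mouse; grey lines join the eyes of a mouse, bars mark medians of the 9 libraries and digits give the mouse. *Ugdh* and *Ugp2* rise along every line, the *Ugt1a6* genes along every line but that of mouse 6, *Ugt1a7c* along 7 lines, and *Sult1c1* falls along all 9.

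*Ugt1a6a* and *Ugt1a6b* belong to the *Ugt1a* cluster on chromosome 1, in which each gene has a first exon of its own and all share the exons that follow. Their enzymes conjugate small planar phenols. On GRCm38 they span chr1:88134809-88218997 and chr1:88103252-88219003 on the plus strand, both ending in the shared exons. In the GENCODE annotation the last 740 coding bases were identical in all 9 *Ugt1a* genes, and *Ugt1a6a* and *Ugt1a6b* were identical in the last 777 and differed at 26 of their 819 earlier coding bases (96.8% identity). The 90 bases in which they differ most (coding bases 271 to 360, at chr1:88138744-88138833 and chr1:88107212-88107301) are shown because reads from there can tell the genes apart, with the 13 differing bases in capitals:

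Ugt1a6a: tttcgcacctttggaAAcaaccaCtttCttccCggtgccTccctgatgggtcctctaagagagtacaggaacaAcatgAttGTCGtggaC

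Ugt1a6b: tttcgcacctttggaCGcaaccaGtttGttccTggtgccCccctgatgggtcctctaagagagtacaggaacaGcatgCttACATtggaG

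Of the 31-base words of the *Ugt1a6a* coding sequence, 78.4% also occur in that of *Ugt1a6b*. Counts of the pair therefore depend on how shared reads were assigned, and the genes of the pair are not independent measurements.

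For *Ugt1a6a* the lowest, median and highest levels were 3.49, 11.6 and 25.3 CPM in control eyes and 5.31, 49.2 and 85.0 CPM in Best1-Nrf2 eyes. The treated eye was the higher one in 8 of 9 mice, and 7 treated eyes lay above every control eye, whereas those of mice 3 and 6, at 8.87 and 5.31 CPM, lay within the control range. Nrf2 eyes differed from control eyes by 1.85 ± 0.38 (SE) on the log2 scale (adjusted p = 0.0156, edgeR), from means of 12.3 ± 6.96 and 47.9 ± 28.3 CPM (SD, n = 9 each). The call held without each mouse in turn (adjusted p of 0.000184 to 0.0497, edgeR). In mouse 6 the Best1-Nrf2 eye was lower than its fellow, by a log2 difference of -1.24, while in the other 8 mice the difference was 1.33 to 3.02.

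For *Ugt1a6b* these levels were 2.03, 12.3 and 20.6 CPM in control and 4.52, 39.7 and 78.3 CPM in Best1-Nrf2 eyes. It was higher in 8 of 9 mice, again with mouse 6 as the exception, by 1.82 ± 0.40 (SE) on the log2 scale (adjusted p = 0.0218, edgeR). This call was lost without mouse 2 (adjusted p = 0.0571), mouse 3 (0.0519), mouse 5 (0.0670), mouse 7 (0.0652) or mouse 9 (0.0633). The ratio of *Ugt1a6a* to *Ugt1a6b* counts was 0.742 to 1.72 in control eyes and 1.05 to 1.32 in Best1-Nrf2 eyes.

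When all 9 *Ugt1a* genes were summed, the locus was at 6.33, 25.8 and 47.4 CPM (lowest, median and highest) in control eyes and at 10.96, 95.6 and 179 CPM in Best1-Nrf2 eyes. The summed locus rose by 1.79 ± 0.37 (SE) on the log2 scale (adjusted p = 0.0164, edgeR). Without mouse 7 the adjusted p was 0.0517. *Ugt1a6a* and *Ugt1a6b* together made up 85.4% to 97.0% of the locus counts in every library.

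The Best1-Nrf2 eyes of mice 3 and 6 also had the highest *Ttr* of the treated eyes, and that of mouse 6 the highest photoreceptor markers. *Ttr*, the gene of transthyretin, was at 54488 and 41054 CPM in them and at 6499 to 18414 CPM in the other 7, and the other 13 RPE markers summed to 13650 and 11382 CPM in them and to 6155 to 12437 CPM in the other 7. The control eye of mouse 3 had the highest *Ttr* level of the control eyes, 39827 CPM. Red blood cell markers summed to 5347 and 3646 CPM in the treated eyes of mice 3 and 6 and to 341 to 1761 CPM in the other 7. The choroidal melanocyte sum of the treated eye of mouse 3, 12386 CPM, was the highest of all libraries, and that of mouse 6 was 1795 CPM. In the treated eye of mouse 6 the cone markers summed to 288 CPM (28.2 to 57.5 CPM in the other 8) and the rod markers to 117 CPM (6.13 to 23.3 CPM), and its inner retina neuron sum of 2445 CPM was the highest of all libraries. Mice 3 and 6 were also the Best1-Nrf2 eyes with the highest *Sult1c1* (126 and 48.2 CPM) and *Rpe65* (718 and 440 CPM). *Nfe2l2* was 2.41 and 1.84 higher on the log2 scale than in the fellow eyes of mice 3 and 6; the value of mouse 6 was the smallest but that of mouse 8 (1.13), and its treated eye had the lowest *Nfe2l2* level of the Best1-Nrf2 eyes, 275 CPM against a median of 457 CPM. The part of cell composition and of the *Nfe2l2* level in the *Ugt1a6* levels of these eyes was not tested.

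**Figure D4:**
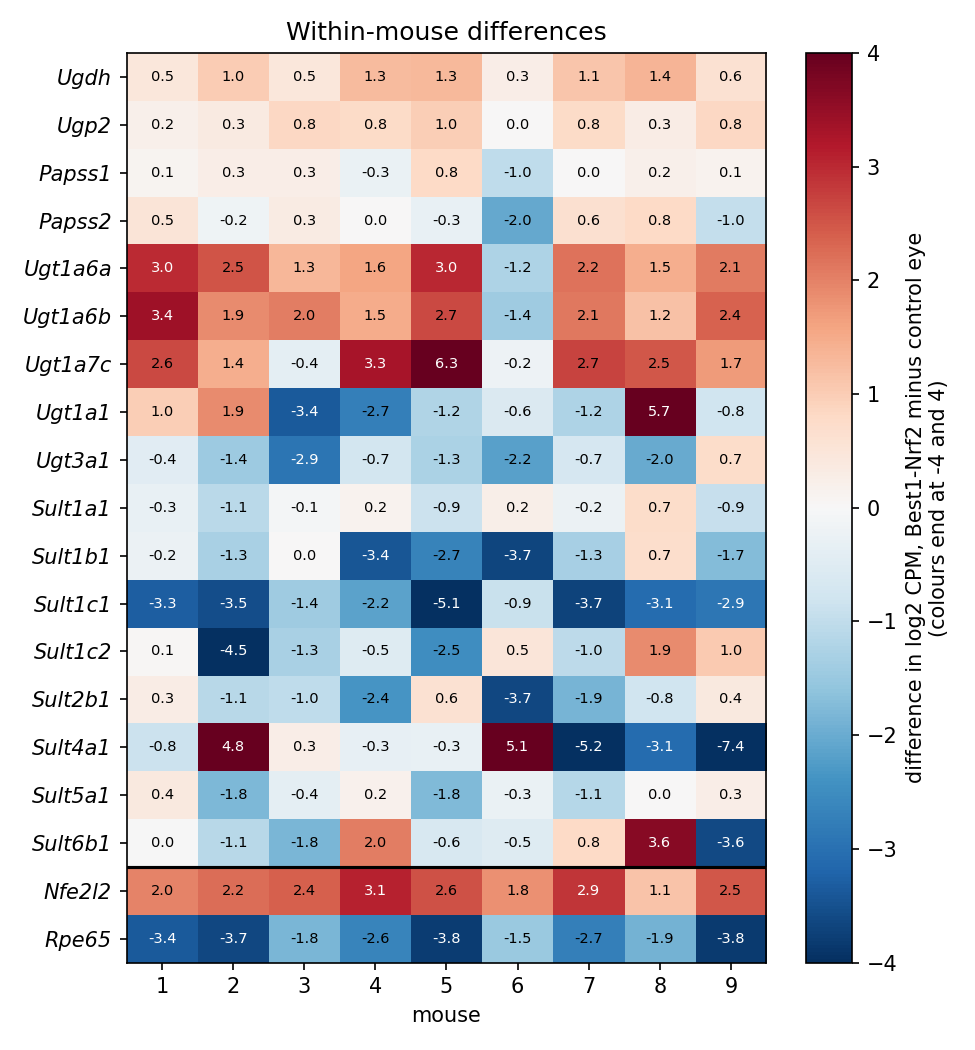
Difference in log2 CPM (prior count of 2) between the Best1-Nrf2 and the control eye of each mouse, for the 17 expressed members and, under the line, *Nfe2l2* and *Rpe65*; red is higher and blue lower in the Best1-Nrf2 eye. Mouse 6 has a negative value for both *Ugt1a6* genes and, of all mice, the smallest drop of *Sult1c1* (-0.88) and *Rpe65* (-1.49).

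Of the other *Ugt1a* genes, *Ugt1a7c*, whose enzyme also conjugates phenols, averaged 0.90 ± 0.57 CPM without and 5.39 ± 3.83 CPM with Nrf2 (SD, n = 9 each). It was higher in 7 of 9 mice, not in mice 3 and 6, and did not pass the threshold (log2 fold change 2.22 ± 0.62 (SE); adjusted p = 0.0799, edgeR). The adjusted p was 0.0499 without mouse 3 and 0.0287 without mouse 6. *Ugt1a1*, the gene of the bilirubin-conjugating enzyme, held 0.90 ± 1.05 and 0.71 ± 0.89 CPM (log2 fold change -0.53 ± 1.07 (SE), adjusted p = 0.925, edgeR), and 5 libraries had no count of it.

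*Ugt1a9* and *Ugt1a8* did not reach the expression rule but were found almost exclusively in Best1-Nrf2 eyes. *Ugt1a9* had 0 counts in the 9 control libraries, and in Best1-Nrf2 eyes 25, 4, 60, 101 and 26 counts in mice 1, 2, 4, 5 and 7 and 0 in the others. *Ugt1a8* had 3 counts in 1 control library and 115 counts over 7 Best1-Nrf2 libraries, from 3 to 37 in each. The Best1-Nrf2 eyes without *Ugt1a9* included those of mice 3 and 6, and mouse 6, like mouse 4, also had no count of *Ugt1a8*. Both were singled out after their counts had been seen, so no test is given, and 740 of the 1587 coding bases of *Ugt1a9* are those shared by the whole cluster. Of the remaining members of the cluster, *Ugt1a10* held 4 counts in control and 30 in Best1-Nrf2 libraries. The other two had more counts in control libraries, 24 against 10 for *Ugt1a2* and 36 against 7 for *Ugt1a5*.

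Outside the cluster, UGT genes were scarce. *Ugt3a1*, of a family that uses other UDP-sugars, averaged 0.81 ± 0.86 CPM without and 0.29 ± 0.22 CPM with Nrf2, lower in 8 of 9 mice, and did not pass the threshold (log2 fold change -1.37 ± 0.44 (SE); adjusted p = 0.142, edgeR). *Ugt8a*, which adds galactose to ceramide in myelin-forming cells, held 237 counts, split into 121 in control and 116 in Best1-Nrf2 eyes. The 10 *Ugt2* genes, major glucuronosyltransferases of the liver and nasal epithelium, held 9 counts in all, and 7 of them had none.

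*Sult1c1*, on chromosome 17 (GRCm38, chr17:53961615-53990674, minus strand), encodes a cytosolic sulfotransferase of phenolic compounds. In control eyes its lowest, median and highest levels were 72.7, 187 and 337 CPM, and in Best1-Nrf2 eyes 8.27, 19.9 and 126 CPM. All 9 mice had less of it in the treated eye, and 8 of the 9 Best1-Nrf2 eyes lay below every control eye. The groups overlapped only through the Best1-Nrf2 eye of mouse 3, whose fellow eye had the highest control level. From means of 182 ± 90.9 and 31.9 ± 37.2 CPM (SD, n = 9 each), it fell by 2.90 ± 0.40 (SE) on the log2 scale (adjusted p = 0.00102, edgeR), and the call held without each mouse in turn (log2 fold change of -3.15 to -2.64).

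Of the RPE markers, *Rpe65* fell by an amount like that of *Sult1c1*. *Rpe65*, the isomerase of the visual cycle, fell from 2021 ± 846 to 297 ± 177 CPM (SD, n = 9 each; 7.00-fold lower in the fit, adjusted p = 0.000241, edgeR). The ratio of *Sult1c1* to *Rpe65* CPM, taken after the values of both had been seen, had a median of 0.0897 in control (0.0546 to 0.131) and 0.0969 in Best1-Nrf2 eyes (0.0387 to 0.175). Over the whole RPE list the change was smaller, with a median log2 fold change of -0.49 over 14 genes: 9 of them were not called, and 3 had a positive value, *Best1* (0.97, higher in 9 of 9 mice), *Ttr* (0.44) and *Tyrp1* (0.08). The 9 cone markers, all called lower, had a median of -3.27. Whether the lower *Sult1c1* level came from the cells that hold *Rpe65* was not tested.

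The upstream regions of *Ugt1a6a* and *Sult1c1*, the called members with the largest rise and fall, are shown to set them beside that of *Ugdh*. Neither window holds TGACNNNGC or GCGTG, and the parts before any annotated exon lie at chr1:88134559-88134808 on the plus strand and chr17:53990675-53990881 on the minus strand (RefSeq, GRCm38.p6):

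Ugt1a6a: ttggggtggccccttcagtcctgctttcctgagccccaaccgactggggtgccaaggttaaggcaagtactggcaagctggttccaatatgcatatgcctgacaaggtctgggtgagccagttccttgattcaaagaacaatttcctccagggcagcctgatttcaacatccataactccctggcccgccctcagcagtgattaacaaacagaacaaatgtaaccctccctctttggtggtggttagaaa

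Sult1c1: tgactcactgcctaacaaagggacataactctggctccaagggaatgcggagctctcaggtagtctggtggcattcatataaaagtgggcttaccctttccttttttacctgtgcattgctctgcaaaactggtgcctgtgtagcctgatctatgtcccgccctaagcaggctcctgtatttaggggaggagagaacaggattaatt

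The absence of these letters covers only the windows shown.

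All 7 tested SULT genes had a negative log2 fold change (53.0% of all genes tested had one), with a median of -0.68, but only *Sult1c1* passed the threshold, and the sign turned for *Sult4a1* without the mouse in the model (0.84) and for *Sult6b1* without mouse 3 (0.035). Summed over the family, SULT genes held 112 to 370 CPM in control and 33.0 to 155 CPM in Best1-Nrf2 eyes, and *Sult1c1* made up a median of 81.3% of this sum in control (64.3% to 91.1%) and 44.8% in Best1-Nrf2 eyes (16.3% to 81.2%).

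*Sult1a1*, the main phenol sulfotransferase, came next in level and averaged 21.6 ± 5.86 CPM without and 18.2 ± 6.04 CPM with Nrf2 (SD, n = 9 each; log2 fold change -0.27 ± 0.21 (SE), adjusted p = 0.704, edgeR). *Sult2b1*, which sulfates cholesterol and other hydroxysteroids, was at 3.88 ± 3.38 and 2.21 ± 2.17 CPM (log2 fold change -1.04 ± 0.47 (SE); adjusted p = 0.378, edgeR). Its unadjusted p was 0.0477, and it was lower in 6 of 9 mice. *Sult5a1* was at 4.71 ± 1.59 and 3.30 ± 1.00 CPM (log2 fold change -0.50 ± 0.31 (SE), adjusted p = 0.596, edgeR).

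The other expressed SULT genes had few counts. *Sult1c2*, the neighbour of *Sult1c1*, was at 0.57 ± 0.30 and 0.38 ± 0.27 CPM (log2 fold change -0.68 ± 0.73 (SE); adjusted p = 0.820, edgeR). *Sult6b1* was at 0.36 ± 0.30 and 0.28 ± 0.19 CPM (log2 fold change -0.27 ± 0.84 (SE); adjusted p = 0.955, edgeR). *Sult1b1*, a sulfotransferase of thyroid hormones, met the expression rule but not the filter of the test, and had no count in 1 control and 4 Best1-Nrf2 libraries. When it was tested under the expression rule as the filter, its log2 fold change was -2.12 ± 0.80 (SE; adjusted p = 0.257, edgeR).

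*Sult4a1*, a sulfotransferase gene of neurons whose substrate is not known, had the largest SE of the log2 fold change among the tested members. It was below 1 CPM in 6 control and 7 Best1-Nrf2 eyes, whereas control eyes of mice 7, 8 and 9 had 12.6, 5.64 and 9.02 CPM and Best1-Nrf2 eyes of mice 2 and 6 had 19.8 and 33.7 CPM. Those Best1-Nrf2 eyes had the highest summed inner retina neuron markers of all libraries, 1556 and 2445 CPM. The control eyes with high *Sult4a1* did not stand apart in this sum, with 1142, 406 and 984 CPM in mice 7, 8 and 9. The sum of mouse 8 was the lowest of all libraries. *Trpm1* had the highest control mean of the list, 490 CPM, so the sum follows that gene more than any other. Whether *Sult4a1* in these eyes came from neurons was not tested. The log2 fold change of *Sult4a1*, -0.83 ± 1.39 (SE; adjusted p = 0.904, edgeR), turned to 0.84 in a model without the mouse.

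Among the 13 SULT genes that were not expressed, 11 had no count in any library, including all 8 *Sult2a* genes, the hydroxysteroid sulfotransferases of the liver, and both *Sult3a* genes. *Sult1e1*, the estrogen sulfotransferase, had 9 counts in 1 control library, and *Sult6b2* had 1 count.

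Genes next to these reactions were counted from lists taken whole, which were also chosen with earlier results of these data known. Of 5 tested ABC exporters of conjugates, 3 rose (3.12% of all genes tested rose), with a median log2 fold change of 1.25 over the 5. *Abcc4* averaged 44.5 ± 17.03 CPM without and 411 ± 257 CPM with Nrf2 (SD, n = 9 each; log2 fold change 2.95, adjusted p = 0.000725), and *Abcc1* at 71.0 ± 31.6 and 169 ± 65.0 CPM (log2 fold change 1.25, adjusted p = 0.00769), both higher in 9 of 9 mice by edgeR. *Abcc3* was much lower in level, at 1.34 ± 2.51 and 4.60 ± 2.78 CPM, and rose in 8 of 9 mice (log2 fold change 2.91, adjusted p = 0.0410, edgeR). That call was lost in 7 of the 9 fits that left out 1 mouse, those without mouse 1, 2, 3, 4, 5, 7 or 9 (adjusted p of 0.0617 to 0.109), and in the fit without the replicate block, where the log2 fold change was 1.81 (adjusted p = 0.262, edgeR). The other 2, *Abcc5* and *Abcg2*, had log2 fold changes of 0.09 and -0.11.

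Of 17 genes of UDP-sugar and PAPS handling, 1 rose and none fell (3 higher and 0 lower at an unadjusted p under 0.05, edgeR), against 3.12% of all genes that rose and 12.8% at an unadjusted p under 0.05 in either direction. The gene was *Slc26a1*, a sulfate and oxalate exchanger, with means of 0.60 ± 0.29 CPM without and 4.12 ± 1.85 CPM with Nrf2 (SD, n = 9 each; log2 fold change 2.81, higher in 9 of 9 mice), and the median over the list was -0.00. Of 13 tested genes of conjugate breakdown, a list of sulfatases, the glycosidases *Gusb* and *Idua* and the sulfatase-modifying factors *Sumf1* and *Sumf2*, 1 rose, against 3.12% of all genes. It was *Gusb*, the lysosomal beta-glucuronidase, from 24.9 ± 6.84 to 43.5 ± 13.5 CPM (log2 fold change 0.81, adjusted p = 0.0316, edgeR, higher in 9 of 9 mice). That call was lost in 6 of the 9 fits that left out 1 mouse, those without mouse 2, 4, 5, 7, 8 or 9 (adjusted p of 0.0513 to 0.105), and without the replicate block (0.0509).

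The Golgi sulfotransferases and the enzymes that build glucuronic acid polymers were counted apart, since they draw on the same donors. Of 29 tested Golgi sulfotransferases, 2 rose, against 3.12% of all genes. They were *Chst12*, which sulfates chondroitin (log2 fold change 1.16), and *Hs6st2*, which sulfates heparan (1.49), both higher in 9 of 9 mice, and the median was 0.13. Without the replicate block *Chst12* missed the threshold (adjusted p = 0.0528, edgeR). None of the 11 polymer-building glucuronosyltransferases passed the threshold by edgeR, with 2 higher and 0 lower at an unadjusted p under 0.05 (12.8% of all genes in either direction). Of the 13 enzymes of methyl, acetyl and acyl conjugation, none passed either, with 0 at an unadjusted p under 0.05 in either direction, and with DESeq2 0 rose and 0 fell.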

How the data were processed

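The 18 libraries, from both eyes of 9 mice, held RNA recovered from the liquid around each eyecup. Groups and the pairing came from the labels, where the fellow eyes share the individual's number. The members and the gene lists were chosen with earlier results of these data known.

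STAR alignments to mm10, counted by featureCounts over Ensembl genes, and Salmon 0.8.1 estimates were both made by the authors. The deposited table holds expected counts per gene as whole numbers, not scaled between libraries, and does not say which counter made it. The *Ugt1a* genes share exons, so their counts depend on how that counter assigned shared reads. No molecular identifiers are described, and the totals bound the counting error alone. Sequencing was split into runs that the labels do not assign, so run was not a term. The study's methods name fewer P40 pairs than the 9 analysed here.

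Symbols were found for 47310 of 47729 gene IDs. Coordinates came from GENCODE mouse release 21 (GRCm38, denoted mm10), and 6 pseudogenes with matching symbols were left out. The 18958 genes that passed filterByExpr were fitted in edgeR 4.0.16 (R 4.3.3) with TMM scaling, mouse as a block and a quasi-likelihood F test for the vector. Benjamini-Hochberg adjusted p values under 0.05 were called. CPM values are TMM-scaled, and log2 CPM used a prior count of 2. The SE of a log2 fold change was taken from the F statistic. All expressed members were named; of the other members those with the most counts, and of each pathway list the genes past the threshold, were named, and further members with few counts were named after their values were seen.

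The pairs rest on the labels, since deviations from the group means correlated little between the eyes of a mouse (median -0.00095; range, -0.37 to 0.64). No 2 libraries of a group were duplicates (chi-square per degree of freedom of 49.5 or more over 72 pairs). The alternatives were no replicate block, RLE and upper-quartile scaling, DESeq2 1.42.0, 3 other count filters, the *Ugt1a* genes summed, and removal of each mouse in turn. On simulated data with known changes, edgeR with the block missed most of the smaller changes and made few false calls, whereas a larger share of DESeq2's calls was false. The simulation held no differences between mice, so it cannot rank the tools on these pairs. No library was left out.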

Additional observations from a re-analysis of the deposited data

Results flagged for a closer look

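In groups of 9 libraries, a library was set apart when its gap to the nearest other was large against the range of the group (Dixon's 95% critical value). Of 34 groups screened, 2 held such a library, and chance gives about 1 in 20. *Sult6b1* had its lowest level in the Best1-Nrf2 eye of mouse 9, at a log2 CPM of -4.23 against -2.38 in the next library, from 0 counts. *Nfe2l2* had its highest control level in mouse 8, at a log2 CPM of 7.06 against 6.60 in the next library, and mouse 8 also had the smallest within-mouse difference of that gene (1.13 on the log2 scale).

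Signal was also found in 2 members below the expression rule, which the counts of called members leave out. *Ugt1a9* had 216 counts in Best1-Nrf2 libraries and 0 in control libraries, and *Ugt1a8* had 115 and 3. Both have exons in common with *Ugt1a6a* and *Ugt1a6b*, and how many of these counts came from the shared exons was not tested.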

How the results depend on the processing

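*Ugdh*, *Ugt1a6a* and *Sult1c1* kept their direction and passed the threshold under each alternative run. Without the replicate block, 5 members were higher and 1 lower, the log2 fold change of the *Ugt1a* locus was 1.89 and that of *Nfe2l2* 2.34; the added members were *Ugp2* (adjusted p = 0.0246) and *Ugt1a7c* (0.0144), and *Sult4a1* turned to 0.84. With DESeq2, 5 members were higher and 2 lower, adding *Ugp2*, *Ugt1a7c* (adjusted p = 0.000371) and *Ugt3a1* (0.0421). With a filter of 10 counts in every library *Ugp2* passed (adjusted p = 0.0464).

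Leaving out 1 mouse at a time gave 2 to 5 members higher, with 5 without mouse 6, and 1 lower. The *Ugt1a* locus ranged from 1.66 to 2.09 and missed the threshold without mouse 7 (1.75). *Papss1* ranged from -0.032 (without mouse 5) to 0.18, *Papss2* from -0.23 to 0.11 (without mouse 6; 0.00102 without mouse 9) and *Sult6b1* from -0.68 to 0.035 (without mouse 3) over the 6 fits whose count filter kept it, those without mouse 1, 2, 3, 6, 7 or 8. Genes of conjugate breakdown higher numbered 0 to 2, Golgi sulfotransferases 2 to 3, exporters 2 to 3 and polymer-building enzymes 0 to 1. Without the replicate block these counts were 0, 1, 2 and 1, and DESeq2 called 2 polymer-building enzymes. *Slc26a1* was not kept by the filter of 10 counts in every library. The cause of the other changes was not tested. RLE and upper-quartile scaling moved no call of a member. *Sult6b1*, with at most 29 counts in a library, had an SE of 0.84, and the part of depth in it was not tested.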
